A study of Mus musculus with 12 samples.

Results

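The aryl hydrocarbon receptor (AhR) and the genes it is best known to control were followed in mouse liver as 6 genes chosen by symbol: the receptor Ahr, its partner Arnt, the repressor Tiparp, and the cytochrome P450 genes Cyp1a1, Cyp1a2 and Cyp1b1. All 6 were found among the 56748 genes of the deposited count table, each as a single protein-coding entry. The libraries were poly(A) RNA of whole liver from a pair of 129 lines, 3 biological replicates in each of 4 groups: knockout (KO) females, wild type (WT) females, KO males and WT males. KO mice were of the line 129/Sv-Cyp2e1tm1Gonz/J, which carries a targeted allele of Cyp2e1, a P450 that oxidises ethanol and acetaminophen, and WT mice were of the line 129S1/SvImJ. All mice were 16 weeks old, ate normal chow and lived in co-housed cages, and the labels name no treatment, so no AhR ligand was given as far as they say. Because KO and WT are separate lines, each KO comparison is also a comparison of lines, and the effect of the allele and that of the line cannot be told apart. The labels do not say whether litters or cages were shared.

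AhR is a transcription factor of the bHLH-PAS family that is held in the cytosol by a chaperone complex with HSP90 and the co-chaperone p23 until a ligand binds it. Dioxins, polycyclic aromatic hydrocarbons and products of tryptophan breakdown are among its ligands. The bound receptor enters the nucleus, pairs with ARNT and acts on genes that carry a xenobiotic response element, whose core is GCGTG. TIPARP, a mono-ADP-ribosyltransferase also called PARP7, is induced by AhR and represses it. CYP1A1 is low in liver until a ligand arrives, CYP1A2 is made there without one, mainly near the central vein, and CYP1B1 is known mostly from tissues other than liver.

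The sequences before the starts of Cyp1a1, Cyp1a2 and Tiparp are shown because these were the members that passed a test between groups. They are the 250 bases before each gene start in RefSeq, build GRCm38.p6, written along the gene: Cyp1a1 at chr9:57697363-57697612 (+), Cyp1a2 at chr9:57683656-57683905 (-) and Tiparp at chr3:65528197-65528446 (+). Capitals mark the core GCGTG, read as CACGC where it lies on the other strand, and TATAAA, the core of a TATA box.
Cyp1a1: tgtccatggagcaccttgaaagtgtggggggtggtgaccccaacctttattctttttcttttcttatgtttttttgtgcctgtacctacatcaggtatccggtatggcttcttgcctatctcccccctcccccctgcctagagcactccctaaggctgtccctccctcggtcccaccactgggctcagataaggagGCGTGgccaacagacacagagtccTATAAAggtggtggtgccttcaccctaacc
Cyp1a2: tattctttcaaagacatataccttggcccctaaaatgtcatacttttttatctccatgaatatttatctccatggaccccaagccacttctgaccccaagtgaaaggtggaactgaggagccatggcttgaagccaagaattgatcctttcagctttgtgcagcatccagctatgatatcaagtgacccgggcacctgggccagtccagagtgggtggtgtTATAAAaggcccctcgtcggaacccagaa
Tiparp: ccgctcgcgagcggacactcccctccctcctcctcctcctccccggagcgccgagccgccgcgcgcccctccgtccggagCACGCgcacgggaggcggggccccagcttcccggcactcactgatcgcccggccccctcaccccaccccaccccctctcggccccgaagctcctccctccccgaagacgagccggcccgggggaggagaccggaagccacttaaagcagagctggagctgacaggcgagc
Both strands were searched for GCGTG, for the longer TNGCGTG that contains it, and for TATAAA, and no match overlapped another. GCGTG stood 54 to 50 bases before the start of Cyp1a1 and, on the opposite strand, 170 to 166 bases before that of Tiparp, and it was not in the Cyp1a2 window. Arnt and Cyp1b1 each had 1 match in their windows as well, and Ahr is named only. Of 32851 promoter windows of the same length, 28.2% held GCGTG and 4.1% held TNGCGTG, which was in none of the 5 members' windows. TATAAA stood 30 to 25 bases before Cyp1a1 and 29 to 24 bases before Cyp1a2, against 12.4% of all windows. These matches describe letters only.

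In the mm39 coordinates of the deposited table, Cyp1a1 lies at chr9:57595211-57611107 (+) and Cyp1a2 at chr9:57584220-57590986 (-), head to head with 4224 bases between their annotations. The RefSeq starts used for the sequences above lie further apart than that. In GRCm38.p6 the Cyp1a2 window begins at 57683656 and the Cyp1a1 window ends at 57697612. Ahr lies at chr12:35547973-35585037 (-), Arnt at chr3:95341699-95404551 (+), Tiparp at chr3:65435831-65462939 (+) and Cyp1b1 at chr17:80008966-80022490 (-). Tiparp overlaps 4931440P22Rik, a pseudogene on the opposite strand with 0 to 13 counts per library, and the sources used here do not state whether counting used strand.

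Total counts ran from 15167730 to 25082532 per library, and 14003 genes, holding 99.9% of the counts, passed the filter on low counts. Cyp2e1 averaged 277 ± 46.2 CPM (counts scaled to a common library size) in KO females against 6546 ± 464 CPM in WT females, and 370 ± 45.6 CPM in KO males against 10851 ± 568 CPM in WT males (SD, n = 3 each), and sex-linked genes matched the labelled sexes. The tissue label was checked with 5 hepatocyte marker genes found, which summed to 61868 CPM or more in every library. The female libraries also differed in how their levels depended on gene length. The length slope of a library, the change of its log2 CPM deviation per doubling of gene length, was 0.0839 to 0.307 in KO females and -0.249 to -0.164 in WT females, which do not overlap, while it was -0.165 to 0.187 in KO males and -0.173 to 0.120 in WT males, which do.

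The 6 genes differed widely in level. Compared per length over all 12 libraries, Cyp1a2 was highest at a mean of 587 CPM per kb (range 271 to 956). Ahr followed at 4.06 CPM per kb (2.59 to 5.59), then Arnt at 2.98 (2.05 to 3.84), Tiparp at 1.43 (0.673 to 2.30), Cyp1a1 at 0.699 (0.175 to 1.10) and Cyp1b1 at 0.0634 (0.0321 to 0.124). Each gene was above the next in 12 of 12 libraries, except that Ahr was above Arnt in 11 of 12, the exception being WT male replicate 2. The ranges over libraries overlapped for Ahr and Arnt, for Arnt and Tiparp, and for Tiparp and Cyp1a1, but not for Cyp1a2 and Ahr or for Cyp1a1 and Cyp1b1. Cyp1b1 had 3 to 18 counts per library and did not pass the filter on low counts, so 5 of the 6 genes were tested.

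**Figure D1:**
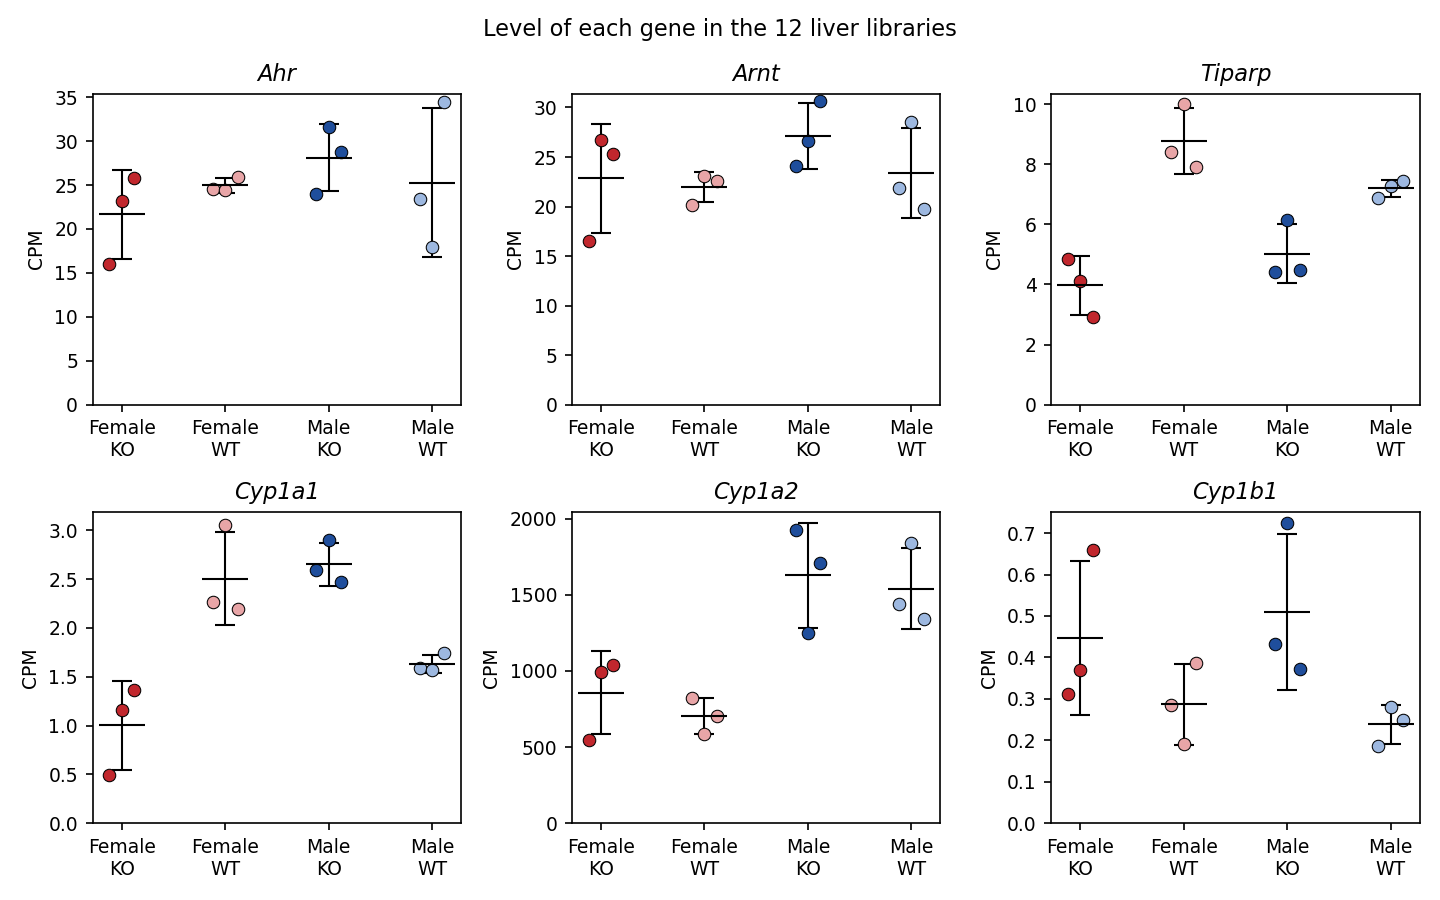
CPM of each of the 6 genes (y axis, starting at 0, its own scale per gene) in KO females, WT females, KO males and WT males (x axis). Points are libraries, and bars show the mean and SD of 3. Tiparp was below 5 CPM in every KO female library and above 7.9 CPM in every WT female library, while Ahr and Arnt overlapped between KO and WT in both sexes.

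In females, Tiparp and Cyp1a1 were lower in KO than in WT livers, each by more than the spread between replicates, while Ahr, Arnt and Cyp1a2 did not pass the test. All values below are edgeR quasi-likelihood tests over all 14003 genes with Benjamini-Hochberg adjustment, called at an adjusted p under 0.05, and SEs are of the log2 fold change, KO over WT. Of the 5 genes tested 2 were called, both lower, against 36.5% of all genes tested in this comparison (17.7% higher and 18.8% lower), so the count is near the background. Of the 6 genes, 2 did not overlap between the groups, both lower, against 54.8% of all genes tested (27.6% higher and 27.1% lower). Here and in later counts of overlap, the 6 genes include Cyp1b1, which is not among the genes tested.

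The receptor gene Ahr had 16.0, 23.2 and 25.8 CPM in KO females, against 24.6, 24.4 and 25.9 CPM in WT females. KO replicate 1 was the lowest of the 6 and the groups overlapped, with a log2 fold change of -0.20 ± 0.24 (adjusted p = 0.521, approximate 95% interval -0.73 to 0.32). Arnt, the partner without which AhR does not bind DNA, had 16.5, 26.7 and 25.3 CPM in KO females, against 20.2, 23.1 and 22.6 CPM in WT females. These groups also overlapped, with KO replicate 1 again lowest (0.06 ± 0.21, adjusted p = 0.851, interval -0.40 to 0.51). The ratio of Ahr to Arnt inside each library, per length, was 1.26, 1.13 and 1.32 in KO females, against 1.58, 1.37 and 1.49 in WT females. All 3 KO values were below all 3 WT values, a log2 difference of -0.26, with an exact two-sided permutation p of 0.1, the smallest that 3 against 3 allows. The ratio was added after the levels were seen. Ahr is 6163 and Arnt 8007 bases long, the length slopes of these groups did not overlap, and no length correction was applied to the ratio. With the length slope as a covariate, the log2 fold changes in females were 0.17 for Ahr and -0.45 for Arnt, the opposite order.

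Tiparp, which encodes the repressor, had 4.85, 4.12 and 2.93 CPM in KO females, against 8.41, 10.0 and 7.91 CPM in WT females. Every KO library was below every WT library. Its mean was 3.97 ± 0.965 CPM in KO females against 8.78 ± 1.10 CPM in WT females (SD, n = 3 each), a log2 fold change of -1.15 ± 0.23 (0.451-fold, adjusted p = 0.0139). Cyp1a1, the enzyme gene most used as a readout of AhR activity, had 0.489, 1.16 and 1.36 CPM in KO females, against 2.27, 3.06 and 2.19 CPM in WT females. The levels were low in all of them, resting on 11, 25 and 37 counts in KO females and on 48, 48 and 34 counts in WT females, and no KO library reached the lowest WT library. The log2 fold change was -1.31 ± 0.34 (0.404-fold, adjusted p = 0.0158). KO replicate 1 was the lowest, at less than any other library of the study, and without it the log2 fold change was -0.98 (adjusted p = 0.0298).

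Cyp1a2, the main CYP1 enzyme of liver, had 545, 992 and 1038 CPM in KO females, against 821, 587 and 701 CPM in WT females. The groups overlapped, with the lowest value and the 2 highest all in KO females (0.29 ± 0.26, adjusted p = 0.384, interval -0.27 to 0.84). Cyp1b1 had 7, 8 and 18 counts in KO females (0.311, 0.370 and 0.660 CPM), against 6, 3 and 6 counts in WT females (0.284, 0.191 and 0.386 CPM). Summed over each group this was 0.463 CPM in KO females (exact 95% Poisson interval 0.318 to 0.650, counting error only) against 0.286 CPM in WT females (0.160 to 0.472), and the intervals overlapped.

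Both female calls depended on single libraries. Without KO female replicate 2 the adjusted p was 0.061 for Tiparp and 0.0612 for Cyp1a1, and without WT female replicate 2 it was 0.0554 and 0.0643, while the log2 fold changes stayed between -1.41 and -1.05. Leaving out either library took the calls over all genes to 4 and 5 genes, from 5116. These are the libraries with the highest and the lowest length slope. With the slope as a covariate neither gene was called (Tiparp -0.76, adjusted p = 0.493; Cyp1a1 -1.31, adjusted p = 0.499), and 9 of all genes were. With the length trend removed from each library both were called (Tiparp -1.19, adjusted p = 0.0137; Cyp1a1 -1.09, adjusted p = 0.0319). In bulk tissue, fewer cells of a type and less RNA per cell cannot be told apart. Summed endothelial markers were 184 to 232 CPM in KO females against 132 to 161 CPM in WT females, with 3 of 7 called, all higher, and summed Kupffer cell markers were 160 to 188 CPM in KO females against 112 to 165 CPM in WT females, which overlap, with 3 of 6 called, all higher. Of 10 pericentral markers 5 were called higher and 1 lower, and their sums overlapped (2273 to 2691 CPM in KO females, 2200 to 2751 CPM in WT females). Of all genes tested, 17.7% were called higher and 18.8% lower. No marker of these lists was called without KO female replicate 2, without WT female replicate 2 or with the slope as a covariate. With that covariate the list medians went from 0.58 to 0.15 (endothelial), from 0.70 to 1.17 (Kupffer) and from 0.62 to -0.26 (pericentral). With the length trend removed, 1 endothelial, 3 Kupffer and 4 pericentral markers were called higher and 1 pericentral marker lower. No marker of these lists was at 0 in all libraries, and their part in the changes of Tiparp and Cyp1a1 was not tested.

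**Figure D2:**
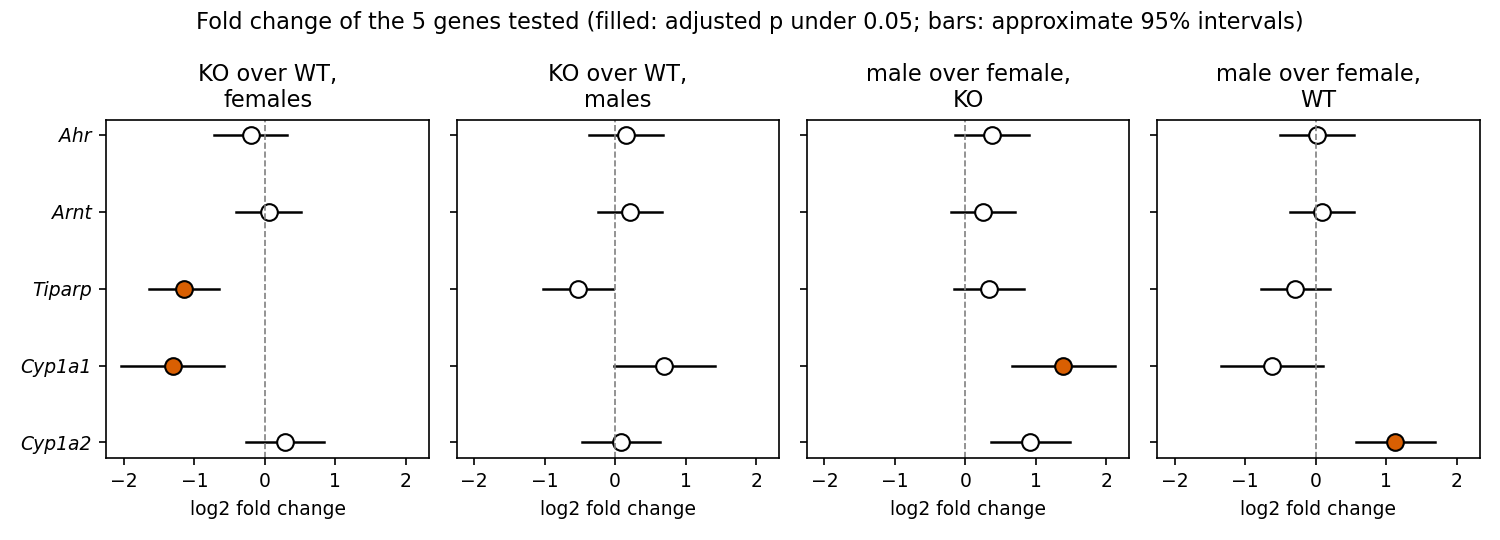
Log2 fold change (x axis) of the 5 genes tested (y axis) for KO over WT in females and in males, and for male over female in KO and in WT mice. Points are estimates, filled where the adjusted p was under 0.05, and lines are approximate 95% intervals. Cyp1a1 lies at -1.31 in females and at 0.70 in males, and Cyp1a2 lies at 1.13 for male over female in WT mice.

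In males, Cyp1a1 was higher in every KO library than in any WT library and Tiparp was lower in every KO library, but neither passed the test over all genes. By edgeR 0 of the 5 genes tested were called, against 0.0571% of all genes tested (8 genes, 0.0286% each way, with 678 at an unadjusted p under 0.05), and DESeq2 called none of them either. Groups did not overlap for 3 of the 6 genes (2 higher, 1 lower), against 9.62% of all genes tested (5.1% higher and 4.52% lower). The higher ones were Cyp1a1 and Cyp1b1, and Cyp1b1 was not among the genes tested. Tiparp had 4.43, 6.15 and 4.47 CPM in KO males, against 6.88, 7.27 and 7.44 CPM in WT males (log2 fold change -0.53 ± 0.23, unadjusted p = 0.04, adjusted p = 0.987). The gap between the highest KO and the lowest WT library was small beside the spread of the KO libraries. Cyp1a1 had 2.59, 2.90 and 2.47 CPM in KO males, on 48, 40 and 53 counts, against 1.59, 1.57 and 1.74 CPM in WT males, on 34, 28 and 28 counts (0.70 ± 0.33, unadjusted p = 0.0563, adjusted p = 1). Its replicates lay closer together than counting error alone would place them, with a coefficient of variation of 8.27% in KO males and 5.62% in WT males, against 14.6% and 18.3% from counting.

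Ahr had 24.0, 31.6 and 28.8 CPM in KO males, against 23.4, 17.9 and 34.5 CPM in WT males (0.15 ± 0.24, adjusted p = 1). Arnt had 24.1, 26.6 and 30.7 CPM in KO males, against 21.9, 28.5 and 19.8 CPM in WT males (0.22 ± 0.21, adjusted p = 1). In WT males the library highest in Ahr was the lowest in Arnt and the reverse, so that the per-length ratio of Ahr to Arnt was 1.29, 1.54 and 1.22 in KO males, against 1.39, 0.818 and 2.26 in WT males (exact permutation p = 1). Cyp1a2 had 1925, 1250 and 1709 CPM in KO males, against 1441, 1840 and 1340 CPM in WT males, which overlapped (0.08 ± 0.26, adjusted p = 1, interval -0.47 to 0.63). Cyp1b1 had 0.432, 0.724 and 0.373 CPM in KO males, against 0.187, 0.280 and 0.248 CPM in WT males, all KO libraries being higher. These were 26 counts in the KO group (0.483 CPM, Poisson interval 0.316 to 0.708) against 13 in the WT group (0.235 CPM, 0.125 to 0.402), and the intervals overlapped. Summed stellate cell markers did not overlap in males either, at 258 to 280 CPM in KO males against 188 to 249 CPM in WT males, with 0 of 10 called. In females these sums overlapped and their mean was lower in KO, at 263 to 324 CPM (mean 284) against 300 to 342 CPM (mean 320) in WT. The part of stellate cells in the Cyp1b1 values was not tested.

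As the mean of both sexes, Tiparp was lower in KO livers, with a log2 fold change of -0.84 ± 0.16 (adjusted p = 0.0243), the direction being that of 6 of 6 KO libraries within their sex. It was the only called gene of the 5 tested, against 15.1% of all genes tested (7.78% higher and 7.29% lower). The call was lost without any of 7 libraries (KO female replicate 2, WT female replicates 1 and 2, KO male replicates 1 and 3, WT male replicates 1 and 3), with log2 fold changes of -0.85 to -0.79 and adjusted p of 0.05 to 0.0766. It was also lost with the length slope as a covariate (-0.62, adjusted p = 0.237). For Ahr, Arnt, Cyp1a1 and Cyp1a2 the mean KO effects were -0.02 ± 0.17, 0.14 ± 0.15, -0.31 ± 0.24 and 0.18 ± 0.18 on the log2 scale, none of them called.

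For Cyp1a1 the estimated KO effect was -1.31 in females, which was called, and 0.70 in males, which was not, and the difference between them did not pass the test over all genes. The difference of its log2 fold change, males minus females, was 2.00 ± 0.48 (unadjusted p = 0.000988, adjusted p = 0.204, interval 0.98 to 3.03). No gene of all those tested was called for this difference by edgeR (0%), with 3145 at an unadjusted p under 0.05, while DESeq2 called 218 genes and gave Cyp1a1 no adjusted p. With no filter on low counts 1451 genes were called, Cyp1a1 among them (1.99, adjusted p = 0.0154). Leaving out single libraries gave differences of no less than 1.68, each with an adjusted p over 0.05. For Tiparp the difference was 0.62 ± 0.33 (adjusted p = 0.257, interval -0.08 to 1.32), so a smaller effect in males than in females was not shown. For Ahr, Arnt and Cyp1a2 it was 0.36 ± 0.34, 0.16 ± 0.30 and -0.21 ± 0.36.

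Between the sexes, Cyp1a2 was higher in male than in female livers among WT mice, and Cyp1a1 was higher in male livers among KO mice. These comparisons use the same libraries as those of KO against WT. In WT mice Cyp1a2 averaged 1540 ± 264 CPM in males against 703 ± 117 CPM in females (SD, n = 3 each), a log2 fold change of male over female of 1.13 ± 0.26 (2.19-fold, adjusted p = 0.0231). It was the only gene called of the 5 tested, against 4.49% of all genes tested (2.1% higher and 2.39% lower). Groups did not overlap for 3 of the 6 (Cyp1a2 higher, Cyp1a1 and Tiparp lower), against 26.9% of all genes tested (13.4% higher and 13.5% lower). The call was lost without WT female replicate 2 (adjusted p = 0.119), WT female replicate 3 (0.0877), WT male replicate 1 (0.058) or WT male replicate 2 (0.0888). In KO mice Cyp1a2 averaged 1628 ± 345 CPM in males against 858 ± 272 CPM in females, and every male library was above every female library (0.92 ± 0.26, adjusted p = 0.0569). This value was not called here and was called by DESeq2 (0.95, adjusted p = 0.00892), without KO male replicate 2 (1.09, adjusted p = 0.0342) and in 4 other settings.

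Cyp1a1 averaged 2.65 ± 0.219 CPM in KO males against 1.00 ± 0.455 CPM in KO females, a log2 fold change of 1.39 ± 0.34 (2.62-fold, adjusted p = 0.0299). It was the only gene called of the 5 tested in KO mice, against 5.4% of all genes tested (2.95% higher and 2.45% lower). Groups did not overlap for 2 of the 6, both higher in males, against 28.1% of all genes tested (14% higher and 14.2% lower). Without KO female replicate 1, the lowest library, the value was 1.07 (adjusted p = 0.0734), and the call was also lost without KO female replicate 2 (adjusted p = 0.0708) or KO male replicate 1 (0.0772) or 2 (0.0818). In WT mice Cyp1a1 averaged 1.63 ± 0.0917 CPM in males against 2.51 ± 0.483 CPM in females, every male library being lower (-0.62 ± 0.33, adjusted p = 0.291). Tiparp in WT mice averaged 7.20 ± 0.284 CPM in males against 8.78 ± 1.10 CPM in females, also without overlap (-0.29 ± 0.23, adjusted p = 0.453). Among KO mice Tiparp averaged 5.02 ± 0.984 CPM in males against 3.97 ± 0.965 CPM in females, and the groups overlapped (0.34 ± 0.23, adjusted p = 0.404). Ahr and Arnt overlapped between the sexes in both lines.

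Inside each library, the ratio of the neighbouring genes Cyp1a1 and Cyp1a2 does not depend on how libraries are scaled. It can depend on the length slope of a library, since the genes are 2787 and 2013 bases long. No length correction was applied to it. Per length, there were 1476, 1163 and 1045 Cyp1a2 counts for each Cyp1a1 count in KO females, against 496, 263 and 437 in WT females. In males there were 1018, 590 and 949 in KO livers, against 1235, 1599 and 1050 in WT livers. WT females thus had the lowest values of the 4 groups, and none of their libraries overlapped the other groups. The log2 ratio of Cyp1a1 to Cyp1a2 was lower in KO than in WT females by a difference of -1.66 and higher in KO than in WT males by 0.62. For male over female it differed by -1.73 in WT and by 0.55 in KO mice. Each of these 4 comparisons had an exact two-sided permutation p of 0.1, the smallest possible with 3 against 3. The difference of the KO effect between the sexes was 2.28 on the log2 scale (males minus females). This difference was looked at after the ratios were seen and was not tested.

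**Figure D3:**
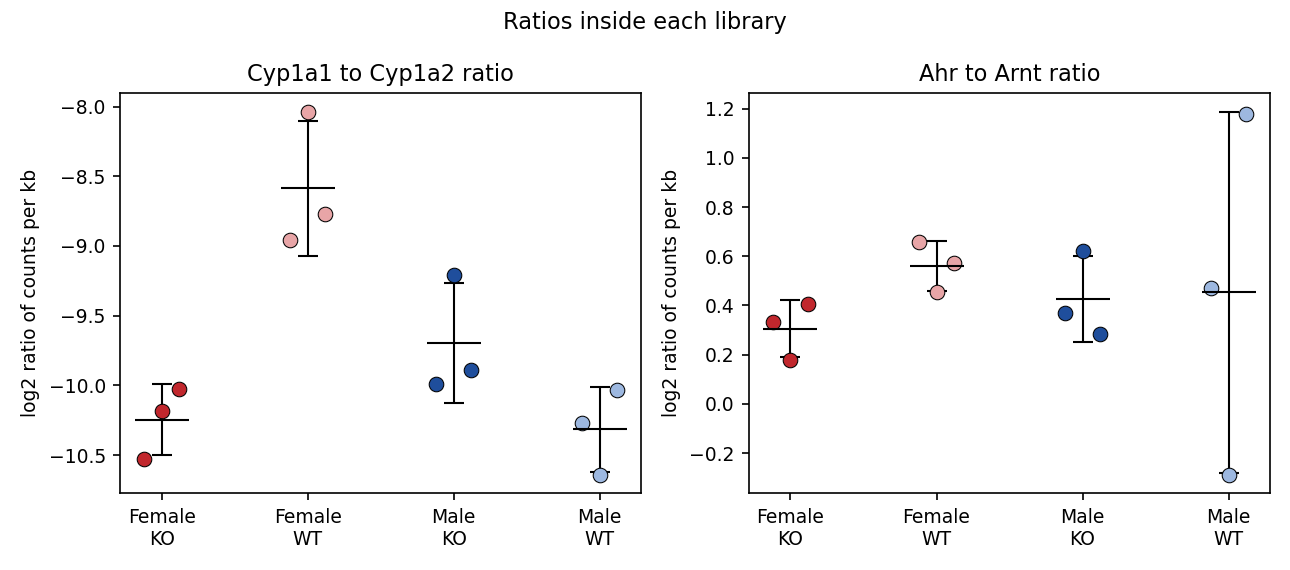
Log2 ratio of counts per kb (y axis) of Cyp1a1 to Cyp1a2 and of Ahr to Arnt inside each library, by group (x axis: KO females, WT females, KO males, WT males). Points are libraries, and bars show the mean and SD of 3. The WT females lie highest for Cyp1a1 to Cyp1a2, with KO females at -10.25 ± 0.26 and WT females at -8.59 ± 0.49.

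Within 100 kb of the pair, 6 other genes were tested, and in females Scamp2, which encodes a membrane protein of secretory vesicles, and Ulk3, a kinase gene, were higher in KO than in WT livers (log2 fold changes of 1.36, adjusted p = 0.0152, and 1.02, adjusted p = 0.0342). In that comparison 36.5% of all genes tested were called (17.7% higher and 18.8% lower). Edc3, the closest gene beyond Cyp1a1, was at 0.23 (adjusted p = 0.428). None of the 6 was called in males or between the sexes.

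Other genes of the pathway were taken from lists by role, and over all genes tested the median log2 fold change in females was 0.05. Of the receptor complex and its partners, 4 of 6 were tested and 3 were lower in KO females, with a median of -0.93, where 18.8% of all genes tested were called lower. Hsp90aa1, an HSP90 gene, averaged 55.1 ± 4.76 CPM in KO females against 154 ± 67.7 CPM in WT females (-1.48 ± 0.28, adjusted p = 0.0139). Ptges3, which encodes p23, averaged 63.4 ± 7.67 CPM in KO females against 124 ± 1.17 CPM in WT females (-0.97 ± 0.25, adjusted p = 0.0152). The other HSP90 gene, Hsp90ab1, was at 707 ± 27.5 CPM in KO females against 723 ± 153 CPM in WT females and was not called. Arnt2, a relative of Arnt known from brain, had 0 counts in all 12 libraries, and Ahrr, the AhR repressor gene, had 8, 3, 0 and 6 counts in KO females, WT females, KO males and WT males.

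Of 12 other AhR-responsive genes 10 were tested, and 1 was higher and 5 were lower in KO females, with a median of -0.62. Of all genes tested, 17.7% were called higher and 18.8% lower. Nqo1, a quinone reductase also controlled by NRF2, averaged 7.30 ± 0.385 CPM in KO females against 21.5 ± 2.35 CPM in WT females (-1.56 ± 0.24, adjusted p = 0.013). Cd36, a fatty acid transporter, averaged 23.4 ± 4.08 CPM in KO females against 65.9 ± 16.1 CPM in WT females (-1.49 ± 0.21, adjusted p = 0.01). Ugdh, which makes UDP-glucuronic acid, was at -0.63 ± 0.17 (adjusted p = 0.0181), and Gsta1, a glutathione transferase with near-identical copies that can share reads, was at -2.63 ± 0.50 on 10 counts in KO females against 47 in WT females. The gene that rose was Ugt1a6b (1.40 ± 0.52, adjusted p = 0.0487), named after its value was seen, and it shares downstream exons with Ugt1a6a, so reads may be split between them. Many of these genes are also controlled by other factors.

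Of all genes tested, 17.7% were called higher and 18.8% lower in KO females. Of 4 other bHLH-PAS genes tested 3 were higher (median 0.96). They were the hypoxia factor gene Epas1 (1.25 ± 0.31, adjusted p = 0.0146) and the clock genes Arntl (1.24 ± 0.34, adjusted p = 0.0182) and Clock (0.68 ± 0.21, adjusted p = 0.0255). Of 11 tested genes of the kynurenine pathway, which makes AhR ligands from tryptophan, 3 were lower (median -0.18). They were Tdo2, the enzyme of its first step in liver, with 716 ± 141 CPM in KO females against 1105 ± 131 CPM in WT females (-0.63 ± 0.21, adjusted p = 0.0317), Haao (-0.80 ± 0.24, adjusted p = 0.0226) and Acmsd (-0.91 ± 0.26, adjusted p = 0.0205). Of 3 electron partners of microsomal P450s, Cyb5a was lower (-0.71 ± 0.21, adjusted p = 0.0232), and Por, the reductase that serves the CYP1 enzymes, was not called (-0.17 ± 0.31). Of 9 other mono-ADP-ribosyltransferases, the enzyme class of TIPARP, 4 were higher and none was lower (median 0.31), among them Parp14 (1.08 ± 0.26, adjusted p = 0.0145) and Parp11 (1.02 ± 0.26, adjusted p = 0.0148).

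Over these 6 lists 8 of 41 genes tested were higher and 12 were lower in KO females, against 17.7% higher and 18.8% lower of all genes tested. In counts added after the data were seen, none was called without KO female replicate 2 or without WT female replicate 2, 1 was called with the length slope as a covariate, and 7 were higher and 11 lower with the length trend removed. With the slope covariate the female medians were -0.36 for the complex genes, 0.16 for the bHLH-PAS genes and -0.93 for the AhR-responsive genes. With the length trend removed they were -0.53, 0.495 and -0.33. In males none of the 41 was called, with list medians of -0.23 to 0.12 against -0.003 over all genes tested. As the mean of both sexes, 3 of the complex genes, 4 of the AhR-responsive genes and none of the other 4 lists were lower in KO livers, where 7.29% of all genes tested were lower and 7.78% higher, with Cd36 at -0.87 ± 0.15 (adjusted p = 0.0188) and Nqo1 at -0.84 ± 0.17 (adjusted p = 0.0255). In the same comparison 3 genes of these lists were higher: Ugt1a6a (1.24 ± 0.33, adjusted p = 0.0376), Epas1 (0.74 ± 0.22, adjusted p = 0.0428) and Kyat1, a kynurenine aminotransferase gene (0.44 ± 0.13, adjusted p = 0.0437).

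**Figure D4:**
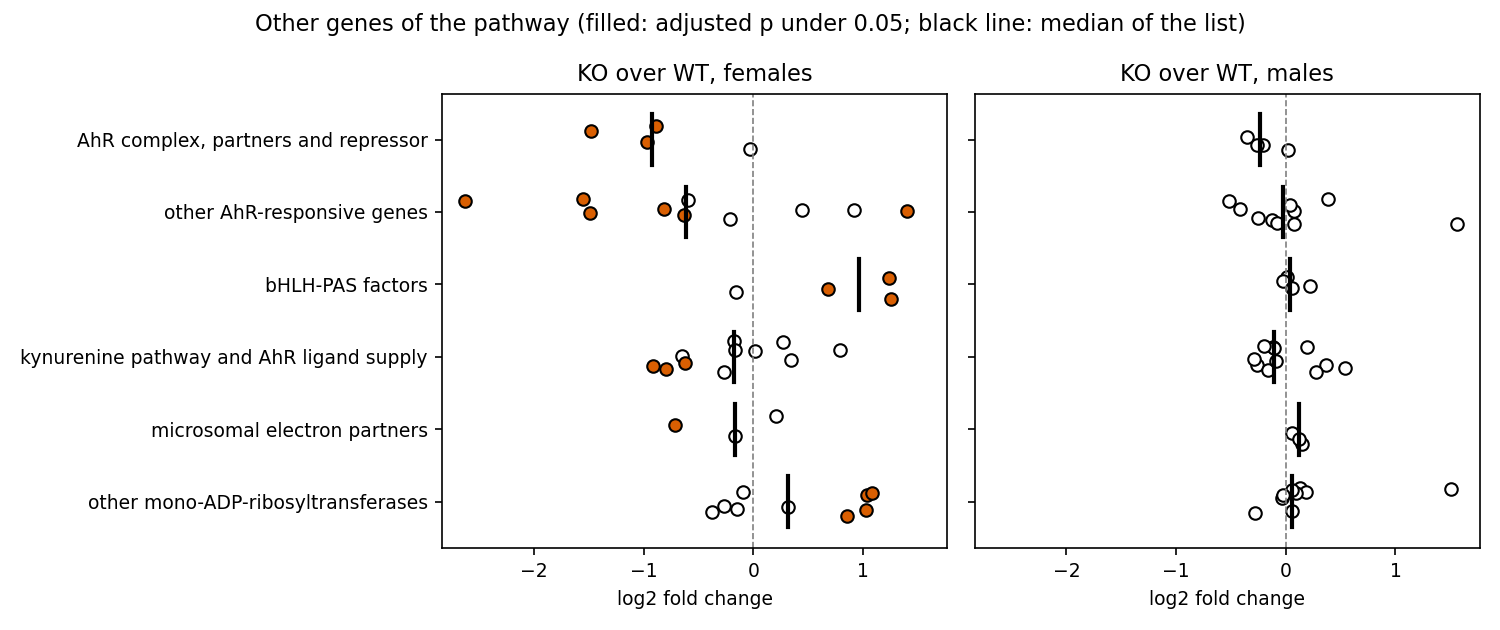
Log2 fold change of KO over WT (x axis) in females and in males for the tested genes of 6 lists of the pathway (y axis). Points are genes, filled where the adjusted p was under 0.05, and black lines are list medians. In females the complex genes lie at a median of -0.93 and the bHLH-PAS genes at 0.96, and in males no point is filled. With the length slope as a covariate, which is not drawn, these female medians were -0.36 and 0.16.

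Several AhR-responsive genes were also lower in male than in female livers. In WT mice 4 of 10 tested were lower and none higher, where 2.39% of all genes tested were lower and 2.1% higher, with a median of -0.76 against -0.005 over all genes tested. Among them Cyp2a5 averaged 933 ± 170 CPM in males against 3139 ± 349 CPM in females, Cd36 was at -2.34 ± 0.22 and Nqo1 at -1.80 ± 0.24 (adjusted p = 0.000423). In KO mice 2 were higher and 3 lower in males, where 2.95% of all genes tested were higher and 2.45% lower (median -0.36 against -0.04 over all genes tested), with Gsta1 at 3.88 ± 0.47 and Ugdh at 1.17 ± 0.18 among the higher. Nqo1 was not among them, at 5.66 ± 0.74 CPM in KO males against 7.30 ± 0.385 CPM in KO females. Of the kynurenine genes, Tdo2 (1.19 ± 0.21, adjusted p = 0.00385), Acmsd (2.06 ± 0.27, adjusted p = 0.00038) and Aadat (1.15 ± 0.18, adjusted p = 0.00162) were higher in KO males than in KO females. In WT mice Aadat was also called higher in males (1.33 ± 0.18, adjusted p = 0.000495). Tdo2 (0.68 ± 0.21, adjusted p = 0.085) and Acmsd (0.87 ± 0.26, adjusted p = 0.085) had the same direction there without a call. Kyat3 was called lower in WT males (-1.19 ± 0.27, adjusted p = 0.0214).

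The genes whose levels ran most like each member were ranked by the root mean square difference of centred log2 CPM over the 12 libraries, among 9980 protein-coding genes. For Cyp1a2 these were Ero1b (0.16), Uvrag (0.22) and Cat (0.22), where the median over all genes was 0.69. For Tiparp they were Gins4 (0.19), Ncbp2 (0.20) and Phf7 (0.20, median of all 0.60). Cyp1a1 had no gene as near, its closest being Zfp970 (0.34), Pfkfb1 (0.34) and Atg4a (0.35), where the median was 0.74. For Ahr they were Ireb2 (0.16), Pals1 (0.17) and Med14 (0.18), and for Arnt Vps13b (0.13), Cped1 (0.14) and Ptprd (0.14). Only genes near a member by this measure are named, and all points share the libraries and their length slopes. The measure also grows with a member's own spread, so its values do not compare members on one scale. The SD of log2 CPM over the libraries was 0.67 for Cyp1a1, 0.63 for Cyp1a2, 0.51 for Tiparp, 0.31 for Ahr and 0.25 for Arnt. Cyp1a1 had only 11 to 53 counts per library.

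**Figure D5:**
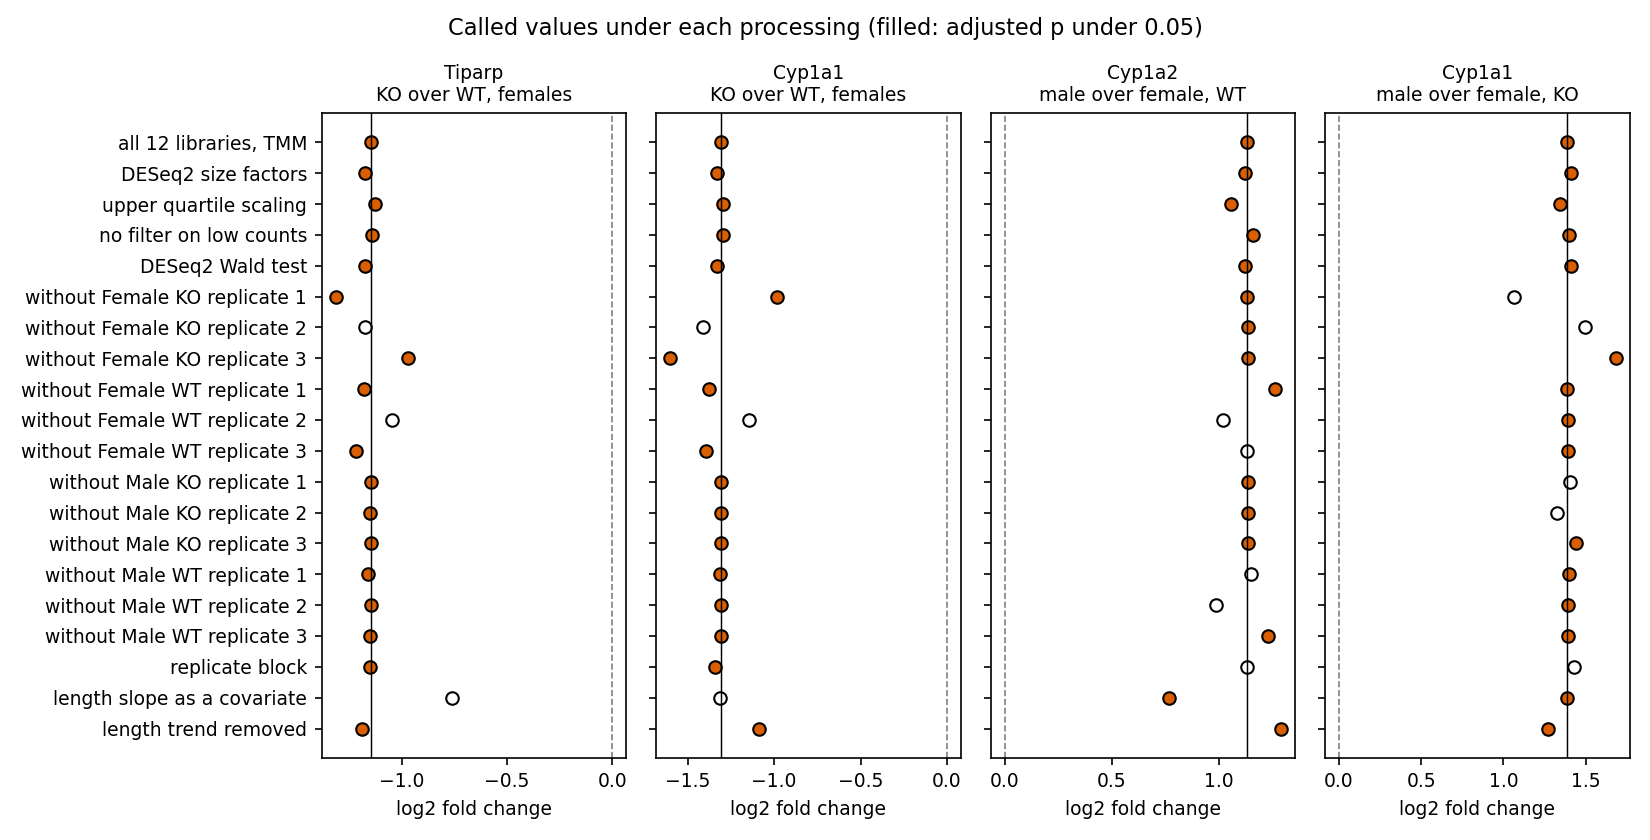
Log2 fold change (x axis) of the 4 called values in single sexes or lines under each processing (y axis), filled where the adjusted p was under 0.05. The black line is the value with all 12 libraries and TMM scaling, and the dashed line is 0. No point crosses 0, and Tiparp and Cyp1a1 in females lose their call without KO female replicate 2, without WT female replicate 2 and with the length slope as a covariate.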

How the data were processed

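The deposited table holds raw read counts per gene for the 12 libraries, per the file headers, with Ensembl identifiers, mm39 positions and a gene length that the authors give in bases. HISAT2 2.0.5, DESeq2 and mm39 are named, without roles, in the submitters' processing notes; the sources used here do not state the counting program or strand setting. Columns were matched to samples by the library number in the labels. The members and lists were chosen with earlier results of these data known.

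Counts were tested with edgeR 4.0.16 in R 4.3.3 (limma 3.58.1): filterByExpr on the 4 groups, TMM, 1 mean per group over 12 libraries (8 residual degrees of freedom, prior 5.22, biological coefficient of variation 25.9%), the quasi-likelihood F test, and Benjamini-Hochberg adjustment over 14003 genes. SEs were derived from the F statistic and the log2 fold change, and 95% intervals from the SEs, so both are approximate. CPM used TMM-scaled library sizes, and log2 CPM a prior count of 2. The length slope used 8946 protein-coding genes with mean log2 CPM over 2. Ratios used a prior of 0.5 counts. DESeq2 1.42.0, other scalings, no filter, single libraries left out, a replicate block and 2 length corrections were alternatives. The code was tested on simulated data. No pair of replicates was as alike as a library deposited again would be (chi-square over its degrees of freedom 14.9 to 136). The edgeR p-values set a difference between groups against the spread between replicates, estimated over the 4 groups and moderated over all genes.

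All 6 members are named, with called list genes (up to 4 per list and comparison, by adjusted p) and the 3 genes most like each tested member; some called list genes are not reported here one by one but stay in all fits and counts. Of 15 lists, those of other cell types gave, in females (higher and lower of those tested): hepatocyte 1 and 0 of 5, stellate 2 and 2 of 10, cholangiocyte 1 and 2 of 5, lymphocyte 2 and 0 of 3, adipose, pancreas and muscle 0 and 1 of 1, erythroid 0 and 0 of 5. Over all genes tested in females 17.7% were higher and 18.8% lower. In males none of these markers was called.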

Additional observations from a re-analysis of the deposited data

Results flagged for a closer look

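The difference of the KO effect on Cyp1a1 between the sexes was estimated at 2.00 on the log2 scale (males minus females, unadjusted p = 0.000988) and did not pass the test over all genes by edgeR (adjusted p = 0.204), with 3 of 3 KO libraries higher than all WT libraries in males and 3 of 3 lower in females. The same difference for the ratio of Cyp1a1 to Cyp1a2 inside each library was 2.28 on the log2 scale and was not tested. Both are given because all libraries of a sex lay on the same side of the comparison, and the sexes on opposite sides.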

How the results depend on the processing

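Of the 5 genes tested, 2 were called in KO against WT females, 0 in males, 1 as the mean of both sexes, 0 for the difference between sexes, and 1 each for male against female in WT and in KO mice. Leaving out single libraries gave 0 to 2, 0 to 0, 0 to 1, 0 to 0, 0 to 1 and 0 to 2. The length slope as a covariate gave 0 in females, 0 for the mean and 2 for male against female in KO mice. The labels do not say that the replicate numbers pair the samples. With each gene centred in its group, 18 correlations between same-numbered libraries ran from -0.613 to 0.277, 3 over 0.1. These cannot show whether litters, cages or days were shared. The replicate block gave 0 for the mean (Tiparp -0.84, adjusted p = 0.0653), 0 between the sexes in WT (Cyp1a2 1.13, adjusted p = 0.0711) and 0 in KO mice (Cyp1a1 1.43, adjusted p = 0.0523). DESeq2 size factors, DESeq2's own test and no filter each gave 2 between the sexes in KO mice, and no filter gave 1 for the difference between sexes.

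Values that were not called changed sign in some settings; the cause was not tested. With the slope covariate, Ahr was 0.17, Arnt -0.45 and Cyp1a2 -0.55 in females, Cyp1a2 -0.056 in males, Ahr 0.20, Arnt -0.15 and Cyp1a2 -0.30 for the mean, Cyp1a2 0.49 for the difference and Arnt -0.14 between WT sexes. With the length trend removed, Arnt was -0.34 in females and -0.063 for the mean, and between WT sexes Ahr was -0.15 and Arnt -0.16. Upper quartile scaling gave Ahr 0 for the mean and -0.051 between WT sexes, and the replicate block -0.01 there. Single libraries left out gave Arnt -0.071 to 0.25 in females, Ahr -0.042 to 0.44 and Cyp1a2 -0.061 to 0.24 in males, Ahr -0.12 to 0.12 for the mean, Arnt -0.031 to 0.33 for the difference, and Ahr -0.26 to 0.22 and Arnt -0.07 to 0.20 between WT sexes.

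Over all genes, 5116 were called in females (4 to 5993 with single libraries left out, 9 with the slope covariate, 3365 with the replicate block), 8 in males (5 to 18; 101 with no filter, 34 by DESeq2), 2111 for the mean (18 to 5594; 23 with the block, 22 with the slope, 3900 with no filter), and 629 and 756 between WT and KO sexes (1700 and 1694 with no filter). For the difference it was 0 (1451 with no filter, 218 by DESeq2). The 4 ratio comparisons of Cyp1a1 to Cyp1a2 kept their direction under all 28 alternative values. These were a larger prior count and single libraries left out. The groups did not overlap in any of the 4, so leaving out a library could not reverse the direction. No length correction was applied to the ratio. Cyp1a1 and Cyp1b1 rest on few counts. Cyp1b1, tested with no filter and in 10 of the settings with a library left out, had no adjusted p below 0.0918.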
